A study of Homo sapiens with 6 samples.

Results

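The genes described here drive or mark cell division: the cyclins, cyclin-dependent kinases (CDKs) and E2F and RB proteins of G1/S control, the CDK inhibitors, the DNA replication machinery and the mitotic apparatus. They were a list of 59 genes given by symbol, and every probe set that the array annotation names for 1 of them alone was taken. At least 1 such probe set was found for 58 genes (131 probe sets), and the brightest by mean log2 intensity over all 6 arrays stood for each gene. Of these, 57 passed the filter on dim probe sets and were tested, among 14308 genes tested in all. Each of the 57 was above the background level of the arrays' Bacillus control probe sets in DMSO. CDKN2B did not pass the filter, and CDKN2C has no probe set of its own in the annotation used. The list was divided by role into G1/S control (14 genes), CDK inhibitors (5), replication (17) and mitosis (23).

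The series measured LS174T cells, an established human colon adenocarcinoma line that forms mucin, on human U133 Plus 2.0 arrays from Affymetrix. Both groups were grown in the same medium and differed in the agent alone: 3 cultures were kept in DMSO, the vehicle, and the other 3 in 250 nM CompE, all for 48 h, with 1 array a culture. The name CompE commonly stands for Compound E, which blocks gamma-secretase and so keeps Notch receptors from being cleaved to their active form, though the labels do not spell it out. The comparison asks how the cells respond to CompE, and it rests on 1 line at 1 dose and 1 time. In RNA from whole cultures, fewer cells in a phase of the cycle and less RNA per cell cannot be told apart.

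Cells enter S phase when cyclin D with CDK4 or CDK6, and then cyclin E with CDK2, phosphorylate RB and release the E2F factors that switch on replication genes. Mitotic genes are switched on later, through the MuvB complex with B-MYB and FOXM1, and CDK inhibitors of the CIP/KIP and INK4 families hold the kinases in check. In the intestinal crypt, Notch signalling keeps progenitors dividing, and its loss moves them toward secretory fates and out of the cycle. Transcripts of cyclins and mitotic kinases are therefore widely used as a readout of the dividing share of a population.

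For most of these genes the CompE and DMSO cultures differed by less than 1.5-fold at 48 h: the whole 95% interval lay within that bound for 55 of 57 genes, against 75.1% of all genes tested. No gene of the list rose, 2 fell, and 55 of 57 did not pass (limma, Benjamini-Hochberg adjusted p under 0.05 over all genes tested). The 2 that fell were CCND2, which encodes cyclin D2, by 1.87-fold, and GMNN, which encodes geminin, the inhibitor of origin licensing, by 1.21-fold. This is 3.51% of the list, where 7.14% of all genes tested passed in either direction, 4.56% as higher and 2.57% as lower in CompE. The proliferation markers MKI67 and TOP2A differed by -0.04 and 0.01 on the log2 scale (adjusted p = 0.731 and 0.959) at their brightest probe sets. Another probe set of each was lower on every CompE array and did not pass (-0.27 and -0.30). A further MKI67 probe set was higher on every CompE array and did not pass either (0.07). As a check of the treatment on the same arrays, HES1, the repressor that Notch induces, fell from an intensity of 811 ± 58.2 to 289 ± 29.2 (mean ± SD, n = 3; log2 difference -1.49, adjusted p = 0.00198).

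**Figure D1:**
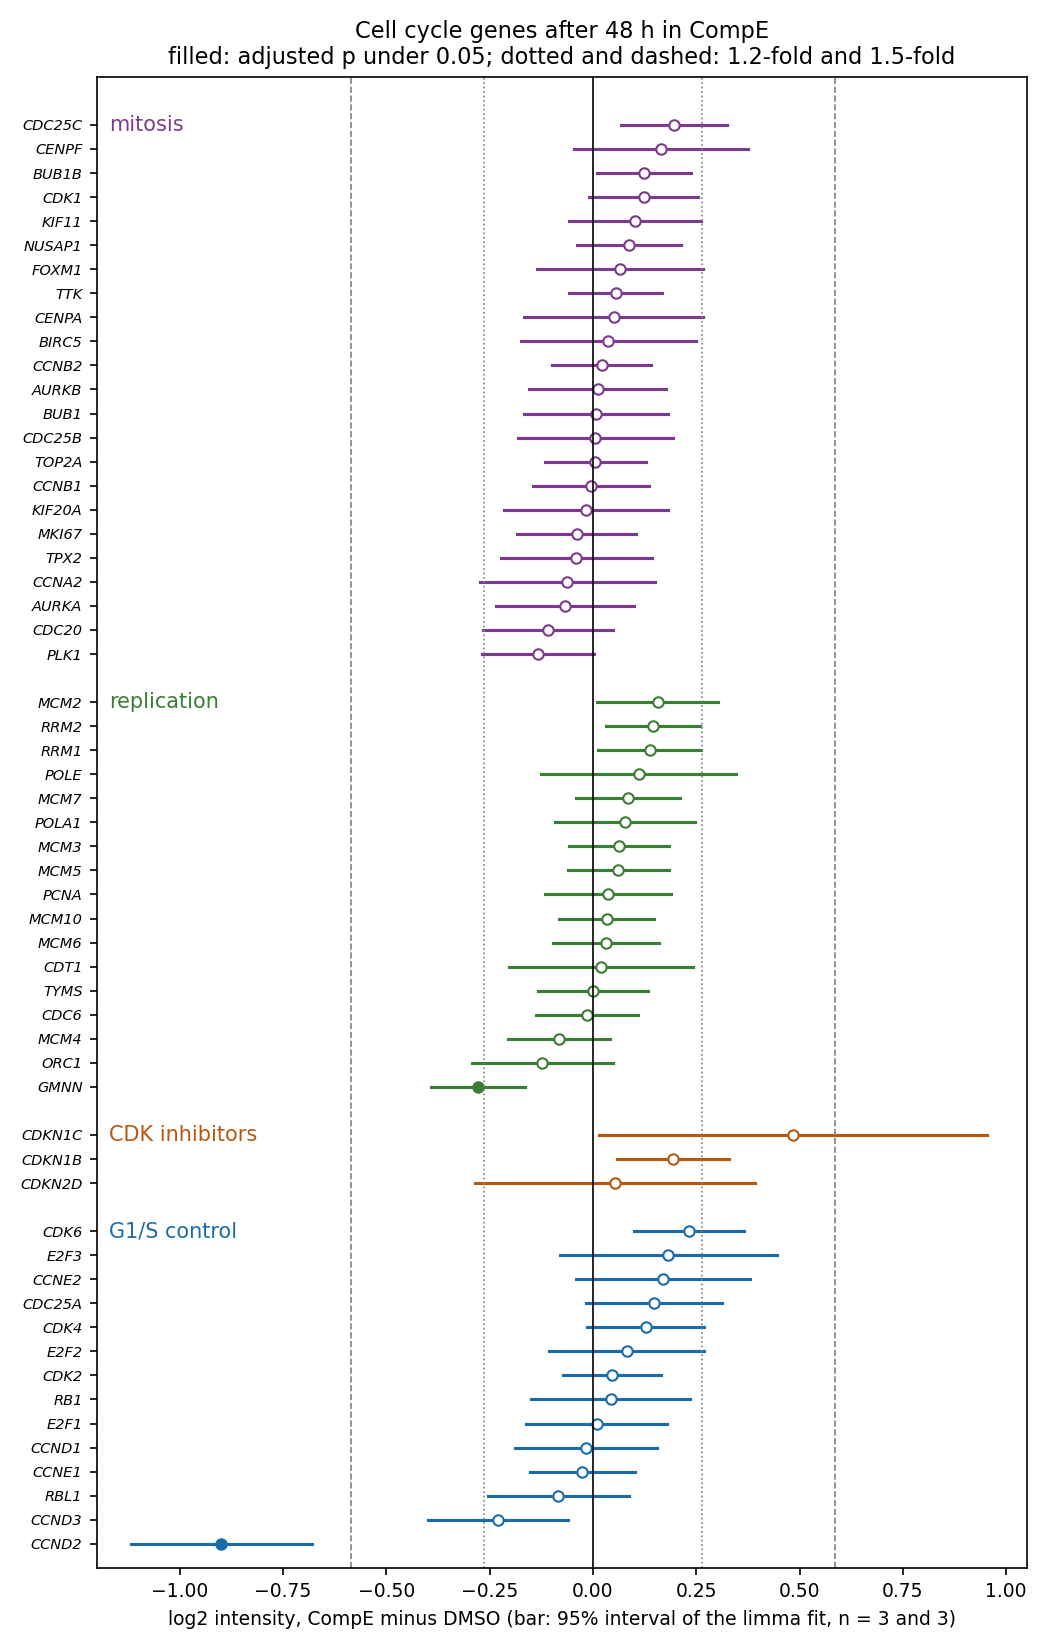
Difference in log2 intensity, CompE minus DMSO (x axis), for the 57 tested genes by role, with bars for the 95% interval of the limma fit (3 arrays a group) and lines at 1.2-fold and 1.5-fold. Filled points are the 2 genes with adjusted p under 0.05, CCND2 at -0.90 and GMNN at -0.28, and 55 intervals lie within the 1.5-fold lines.

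The start regions of a few of these genes show the letters through which the programme is usually read. RefSeq promoter windows on GRCh38.p14, from 250 bases before to 50 bases after each annotated start, were at hand for 47 of the 59 genes. Each was searched on both strands for the E2F site (TTTCGCGC or TTTGGCGC), the cell cycle homology region or CHR (TTTGAA or TTCGAA), the CCAAT box (CCAAT) and the letters bound by the Notch effector RBPJ (GTGGGAA). Letters of different motifs can overlap and each motif was counted by itself, and a gene counts for a motif when any of its windows holds it. No window was at hand for CCND1, CCND2, CCNE2, CDK2, CDKN1C, MCM4, MCM5, FOXM1, AURKA, BIRC5, TPX2 and TTK, so these were not searched. GMNN is shown because it fell, MCM2 as a replication gene, PLK1 as a mitotic gene and CDKN1B as the CDK inhibitor whose groups did not overlap. Capitals mark E2F, CHR and CCAAT letters on either strand, and the GMNN window is the second of its annotated starts (chr6:24775163-24775462, plus strand), MCM2 is chr3:127598161-127598460, PLK1 is chr16:23678639-23678938 and CDKN1B is chr12:12717118-12717417, all on the plus strand.
GMNN: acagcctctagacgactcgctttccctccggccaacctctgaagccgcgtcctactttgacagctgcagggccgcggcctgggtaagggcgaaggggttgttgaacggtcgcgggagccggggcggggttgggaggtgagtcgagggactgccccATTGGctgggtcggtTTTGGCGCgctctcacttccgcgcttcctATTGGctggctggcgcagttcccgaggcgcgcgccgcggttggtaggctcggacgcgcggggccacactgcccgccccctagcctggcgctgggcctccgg
MCM2: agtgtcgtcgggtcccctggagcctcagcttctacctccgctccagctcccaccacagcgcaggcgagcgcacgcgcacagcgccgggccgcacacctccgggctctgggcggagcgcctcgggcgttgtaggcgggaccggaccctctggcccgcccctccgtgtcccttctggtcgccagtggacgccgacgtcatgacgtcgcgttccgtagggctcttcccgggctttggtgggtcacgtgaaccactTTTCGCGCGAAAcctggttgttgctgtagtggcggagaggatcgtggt
PLK1: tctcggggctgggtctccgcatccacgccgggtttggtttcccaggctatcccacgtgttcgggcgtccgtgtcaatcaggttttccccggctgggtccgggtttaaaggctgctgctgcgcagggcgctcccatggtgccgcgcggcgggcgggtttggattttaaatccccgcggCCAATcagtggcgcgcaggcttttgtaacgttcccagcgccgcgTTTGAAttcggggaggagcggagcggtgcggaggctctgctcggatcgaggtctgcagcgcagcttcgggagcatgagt
CDKN1B: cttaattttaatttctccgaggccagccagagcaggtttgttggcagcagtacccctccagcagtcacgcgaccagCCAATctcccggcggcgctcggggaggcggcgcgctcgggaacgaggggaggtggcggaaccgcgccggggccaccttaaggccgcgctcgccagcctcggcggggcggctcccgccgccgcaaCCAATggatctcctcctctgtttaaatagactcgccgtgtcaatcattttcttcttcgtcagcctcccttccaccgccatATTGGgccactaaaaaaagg
In GMNN the E2F letters begin 80 bases before the second annotated start, between a pair of CCAAT boxes read on the minus strand. The window of its first annotated start, not shown, held no E2F, CHR or CCAAT letters. In MCM2 the E2F letters lie just after the start and form overlapping matches on both strands. PLK1 carries a CCAAT box 73 bases and a CHR 29 bases before its start, and CDKN1B carries CCAAT boxes 174 and 50 bases before its start.

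E2F letters were present for 14 of 47 genes (29.8%), against 1.40% of the 27305 genes with a window. They were most frequent among replication genes, with 8 of 15. CHR letters were present for 17 of 47 genes (36.2%, against 19.5% of all), including 14 of 18 mitotic genes, and CCAAT for 36 of 47 (76.6%, against 39.7%), including 17 of 18 mitotic genes. RBPJ letters were present for 3 of 47 genes (6.38%, against 7.62%). The expression difference had a median of 0.08 on the log2 scale over the 14 tested genes with E2F letters and of 0.02 over the 31 without. It was 0.05 over 17 genes with CHR letters and 0.04 over 28 without. For CCAAT it was 0.03 over 35 genes with and 0.06 over 10 without, and for RBPJ letters 0.18 over 3 with and 0.04 over 42 without. CCND2, which had no window, is in none of these medians. A match of letters is a description of the window and not a site.

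Among the D cyclins, which pair with CDK4 and CDK6 in response to growth signals, CCND2 fell and its groups were far apart. Its intensity was 129.9, 109 and 118 on the DMSO arrays and 58.7, 67.6 and 65.3 on the CompE arrays. Every CompE array lay below every DMSO array, and all 6 lay above 45.7, the 95th percentile of the array's 27 Bacillus control probe sets, which human RNA does not match. The log2 difference was -0.90 ± 0.089 (SE; adjusted p = 0.00597), and its 95% interval ran from 0.461 to 0.624 times the DMSO level. The fall rests on 1 of the gene's 4 probe sets. Of the others, 2 passed the filter at mean intensities in DMSO of 33.7 and 25.3, below the Bacillus level, with differences of 0.12 and 0.33, and the last did not pass. Averaging the probe sets past the filter gave -0.15 (adjusted p = 0.595), which ends the call.

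CCND1, encoding cyclin D1, the D cyclin commonly raised by Wnt signalling in colon tumours, did not pass. It measured 1999, 2047 and 1831 in DMSO and 1882, 1864 and 2061 in CompE. At this probe set, the brightest, the groups overlapped fully, with a difference of -0.02 ± 0.070 (adjusted p = 0.909). The interval ran from 0.877-fold to 1.11-fold. The other CCND1 probe set was lower on every CompE array, by -0.18 with a log2 interval from -0.37 to 0.02. It did not pass (adjusted p = 0.274 over probe sets). CCND3, encoding cyclin D3, measured 462, 488 and 423 in DMSO and 399.5, 394 and 375 in CompE. Here all CompE arrays lay lower, but the difference of -0.23 ± 0.069 did not pass (adjusted p = 0.111).

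The partner kinases of the D cyclins had positive differences that did not pass, and with hybridisation-control centring that of CDK6 was 0.09 and that of CDK4 -0.02. CDK6 measured 1308, 1216 and 1197.5 in DMSO and 1462, 1438 and 1469 in CompE. The groups did not overlap, and its difference of 0.23 ± 0.054 came nearest to the threshold among the genes with a positive difference (1.17-fold; adjusted p = 0.0617). Its 7 probe sets past the filter ranged from -0.08 to 0.60, with 1 of the 7 below 0. CDK4 measured 2798, 2803 and 2747 in DMSO and 2977, 3236 and 2915 in CompE, again with no overlap, and its difference was 0.13 ± 0.057 (adjusted p = 0.241).

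The remaining G1/S genes stayed within 0.19 of 0 on the log2 scale at their brightest probe sets. CDC25A, the phosphatase that activates CDK2, differed by 0.15 (adjusted p = 0.242) with no overlap between groups. Its other probe sets past the filter gave -0.22 and -0.02 with overlapping groups. The mean of its probe sets gave -0.03 (adjusted p = 0.847). E2F3, an activating E2F, differed by 0.18 (adjusted p = 0.355), and CompE replicate 2 lay among the DMSO arrays. E2F1, which activates S-phase genes and its own promoter, differed by 0.01 (adjusted p = 0.956). The other E2F1 probe set was higher on every CompE array, by 0.12, and did not pass (adjusted p = 0.281 over probe sets). CCNE1, encoding cyclin E1, differed by -0.03, and CDK2, its kinase, by 0.05 (adjusted p = 0.805 and 0.609). CCNE2, E2F2, RB1 and RBL1, the last 2 being pocket proteins that hold E2F silent, lay between -0.08 and 0.17 with overlapping groups. Another CCNE2 probe set was higher on every CompE array, by 0.42 with an interval from 0.18 to 0.67. It did not pass (adjusted p = 0.0779 over probe sets). Another RBL1 probe set was also higher on every CompE array, by 0.28 (adjusted p = 0.156 over probe sets), where the brightest gave -0.08.

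**Figure D2:**
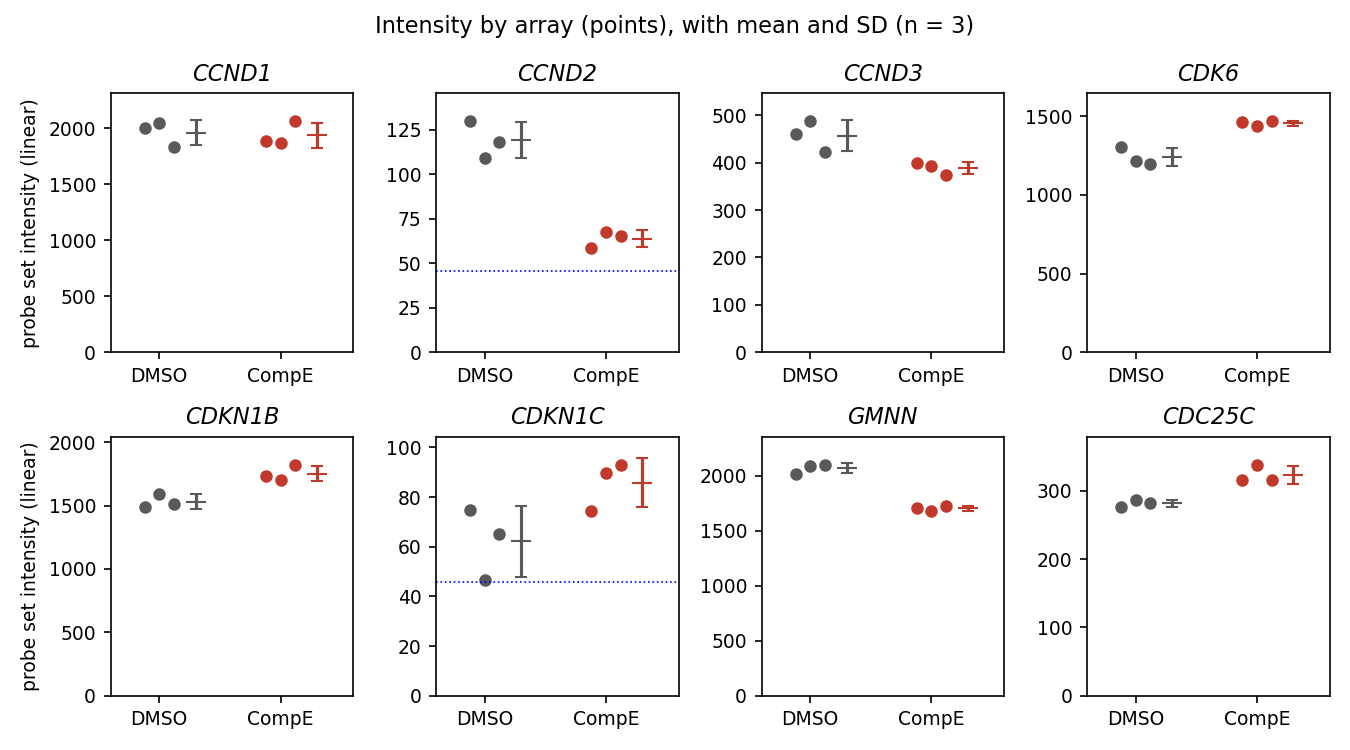
Probe set intensity on each array (linear y axis from 0) for 8 genes, with the mean and SD of 3 arrays beside the points and the Bacillus control level (45.7) as a dotted line for CCND2 and CDKN1C. CCND2 and GMNN are lower on all 3 CompE arrays, CDK6, CDKN1B and CDC25C are higher on all 3 without passing, CCND3 is lower on all 3 without passing, and CCND1 and CDKN1C overlap.

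The CDK inhibitors had the highest median difference of the 4 groups, 0.19 over only 3 tested genes, and none of the 3 passed. CDKN1B encodes p27, which blocks cyclin E with CDK2 and is among the genes that HES1 is reported to repress. It measured 1487, 1595 and 1515 in DMSO and 1734, 1703 and 1823 in CompE. The groups were separate, with a difference of 0.19 ± 0.055 (1.14-fold, interval 1.04 to 1.26; adjusted p = 0.0959).

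CDKN1C, which encodes p57, another inhibitor that HES1 is reported to repress, had the widest interval of the list. It measured 74.7, 46.7 and 65.1 in DMSO and 74.4, 89.9 and 93.1 in CompE. DMSO replicate 1 lay above CompE replicate 1, and the difference of 0.48 ± 0.191 did not pass (adjusted p = 0.192), with an interval from 1.01-fold to 1.94-fold. Without DMSO replicate 2 the difference was 0.29 (adjusted p = 0.294), and the other 5 fits without 1 array gave 0.42 to 0.63. All 4 of its probe sets past the filter had positive differences, from 0.24 to 0.59, and 1 of them passed in a fit over single probe sets (adjusted p = 0.0390, a test chosen after seeing the data). Their mean gave 0.41 and passed (adjusted p = 0.0289). At probe set level 3 of 116 probe sets of the list passed, against 4.28% of the 26962 tested.

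CDKN2D, which encodes the INK4 inhibitor p19, differed by 0.05 ± 0.138 (adjusted p = 0.851). The pair of CDKN2B probe sets, for the INK4 inhibitor p15, read between 2.61 and 18.1 on the 6 arrays, below the Bacillus level, so no difference is given.

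**Figure D3:**
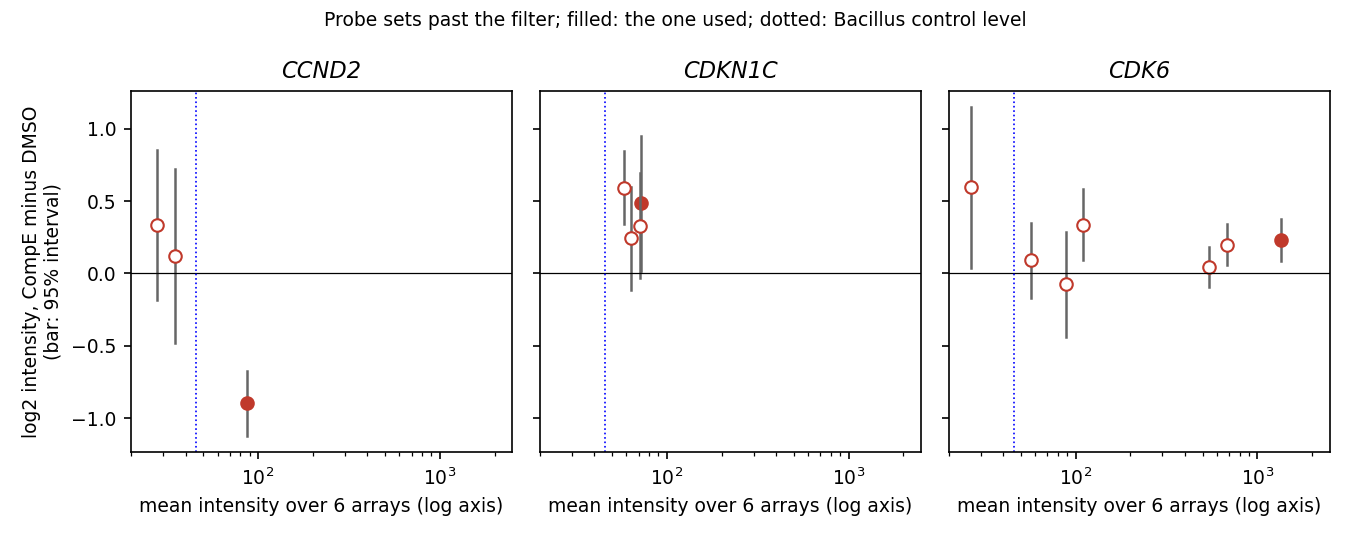
Difference in log2 intensity, CompE minus DMSO (y axis, bars for the 95% interval), against mean intensity over 6 arrays (log x axis) for each probe set past the filter of CCND2, CDKN1C and CDK6. The filled point is the probe set that stands for the gene, and the dotted line is the Bacillus level of 45.7. The CCND2 difference of -0.90 is that of its brightest probe set, while the 4 CDKN1C probe sets lie between 0.24 and 0.59.

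Among the replication genes GMNN fell and the other 16 did not pass. Geminin binds the loading factor CDT1 and keeps origins from being licensed again after S phase. GMNN measured 2015, 2083 and 2099 in DMSO and 1702, 1680.4 and 1728 in CompE. The groups were tight and separate, with a difference of -0.28 ± 0.046 (adjusted p = 0.0266) and an interval from 0.763 to 0.892 times the DMSO level. The GMNN call was lost when any 1 of the 6 arrays was left out (adjusted p from 0.0608 to 0.101, differences from -0.30 to -0.27). CDT1 itself differed by 0.02 (adjusted p = 0.924).

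MCM2 to MCM7 encode the helicase that is loaded at origins, and MCM10 a separate factor that helps it start. MCM2 measured 1270.1, 1222 and 1287 in DMSO and 1423, 1471 and 1323 in CompE. Its groups did not overlap, yet the difference of 0.16 ± 0.059 did not pass (adjusted p = 0.180). At their brightest probe sets MCM3, MCM5 and MCM7 also lay higher on every CompE array, by 0.06, 0.06 and 0.09 (adjusted p = 0.484, 0.501 and 0.361), and MCM4 lower on every one, by -0.08 (adjusted p = 0.373). The other MCM5 and MCM7 probe sets gave -0.003 and 0.08 with overlapping groups. Another MCM4 probe set was lower on every CompE array, by -0.11, while others past the filter gave -0.18 and 0.005 with overlapping groups. MCM6 and MCM10 both differed by 0.03. As the authors scaled the arrays, the 6 helicase subunits lay between -0.08 and 0.16 at their brightest probe sets.

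Ribonucleotide reductase, which makes the deoxynucleotides for replication, gave the smallest unadjusted p after GMNN in the group. Its small subunit RRM2 measured 4089.5, 4257 and 4152 in DMSO and 4564, 4551 and 4709 in CompE. The large subunit RRM1 measured 2269.7, 2119.5 and 2275 in DMSO and 2434, 2448.5 and 2444 in CompE. Neither pair of groups overlapped, and the differences of 0.15 ± 0.046 and 0.14 ± 0.051 did not pass (adjusted p = 0.126 and 0.171). The other RRM2 probe set, almost as bright, gave 0.06 with overlapping groups, and the other RRM1 probe set gave 0.12 without overlap. With hybridisation-control centring the brightest probe sets gave 0.003 for RRM2 and -0.005 for RRM1. TYMS, the thymidylate synthase, differed by 0.00 (adjusted p = 0.994), and PCNA, the sliding clamp of DNA polymerases, by 0.04 (adjusted p = 0.762). POLE, the catalytic subunit of polymerase epsilon, had the widest interval of the group, 0.917-fold to 1.27-fold around a difference of 0.11. CDC6, ORC1 and POLA1 lay between -0.12 and 0.08.

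None of the 23 mitotic genes passed, and all 23 intervals of the probe sets used lay within 1.5-fold. MKI67, which coats mitotic chromosomes and marks dividing cells in pathology, measured 313, 302 and 332 in DMSO and 313, 312 and 296 in CompE. TOP2A, the topoisomerase that untangles sister chromatids, measured 1601, 1661 and 1566 in DMSO and 1583, 1655 and 1608 in CompE. Both pairs of groups overlapped. The interval for this TOP2A probe set ran from 0.923-fold to 1.09-fold, the narrowest reach among the probe sets used, and that for MKI67 from 0.881-fold to 1.08-fold. These bounds hold for 1 probe set each. The other TOP2A probe set past the filter measured 828, 854 and 815 in DMSO and 743, 553 and 757 in CompE. It was lower on every CompE array, with a log2 difference of -0.30 and an interval from -0.62 to 0.02 (adjusted p = 0.258 over probe sets), and the mean of both probe sets gave -0.15 (adjusted p = 0.292). Of the 3 other MKI67 probe sets, 1 measured 283, 286.5 and 310.3 in DMSO and 234, 245 and 253 in CompE. It too was lower on every CompE array, by -0.27 with an interval from -0.43 to -0.11 (adjusted p = 0.0857 over probe sets). Another was higher on every CompE array, by 0.07 (adjusted p = 0.512 over probe sets). The last gave 0.13 with overlapping groups, and the mean of all 4 gave -0.03. CCNB1, encoding the mitotic cyclin B1, gave -0.00 with an interval from 0.904-fold to 1.10-fold at its brightest probe set. Its other probe set was higher on every CompE array, by 0.10 with a log2 interval from -0.03 to 0.24. That probe set did not pass (adjusted p = 0.348 over probe sets).

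CDC25C, the phosphatase that activates CDK1 at mitotic entry, came nearest to the threshold in this group. It measured 276, 287 and 283 in DMSO and 315, 338 and 316 in CompE. The groups did not overlap, with a difference of 0.20 ± 0.052 (1.15-fold; adjusted p = 0.0856). The gene's other probe set past the filter gave 0.03 with overlapping groups. With hybridisation-control centring the brightest probe set gave 0.05 (adjusted p = 0.510). PLK1, the kinase that drives centrosome maturation and mitotic exit, measured 699, 685 and 703 in DMSO and 632, 668 and 606 in CompE. It lay lower on every CompE array, and its difference of -0.13 ± 0.055 did not pass (adjusted p = 0.212). BUB1B, a spindle checkpoint protein, CDK1, the mitotic kinase, and NUSAP1, a spindle microtubule binder, lay higher on every CompE array by 0.12, 0.12 and 0.09 (adjusted p = 0.175, 0.232 and 0.349). CENPA, the histone of centromeres, differed by 0.05 (adjusted p = 0.775) with overlapping groups.

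The other 14 mitotic genes had overlapping groups at their brightest probe sets. They are CCNA2, CCNB2, CDC25B, FOXM1, AURKA, AURKB, BUB1, CDC20, BIRC5, CENPF, TPX2, KIF11, KIF20A and TTK, and their differences ran from -0.11 for CDC20, the activator of the anaphase-promoting complex, to 0.17 for CENPF, a kinetochore protein. FOXM1, the factor that drives much of this group, differed by 0.07 (adjusted p = 0.673). Another BUB1 probe set was lower on every CompE array, by -0.14, and did not pass (adjusted p = 0.296 over probe sets).

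The data also set how small a shift could have been missed. For 35 of the 57 genes (61.4%) the whole 95% interval lay within 1.2-fold of no difference, against 30.1% of all genes tested. Without DMSO replicate 3 this count was 22. Within 1.5-fold lay 55 genes (96.5%), against 75.1%, and the exceptions were CCND2 and CDKN1C. Within 2-fold lay 56 (98.2%), against 92.8%, and the exception was CCND2. These counts take the brightest probe set of each gene: over all 116 probe sets of the list past the filter, 50 intervals lay within 1.2-fold, 97 within 1.5-fold and 114 within 2-fold, against 23.1%, 71.7% and 92.5% of all probe sets tested. The intervals are per gene and not adjusted for the number of genes. The median reach of an interval was 1.19-fold in the list and 1.29-fold over all genes, with median standard errors of 0.064 and 0.082, and the listed genes were also brighter (median log2 intensity 10.29 against 7.95). A difference had to reach 0.30 on the log2 scale, or 1.23-fold, to pass for the median gene of the list, from 1.16-fold for GMNN to 1.86-fold for CDKN1C.

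By role, intervals lay within 1.2-fold for 6 of 14 G1/S genes, 0 of 3 CDK inhibitors, 13 of 17 replication genes and 16 of 23 mitotic genes. The median difference was 0.04 in G1/S control, 0.19 in the CDK inhibitors, 0.04 in replication and 0.01 in mitosis. Over all 57 genes it was 0.04 (quartiles -0.02 and 0.11), beside 0.02 over all genes tested (quartiles -0.10 and 0.15). With the arrays centred on their hybridisation controls the median of all genes moved to -0.12 and that of the list to -0.11, so the sign of these medians depends on the scaling.

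**Figure D4:**
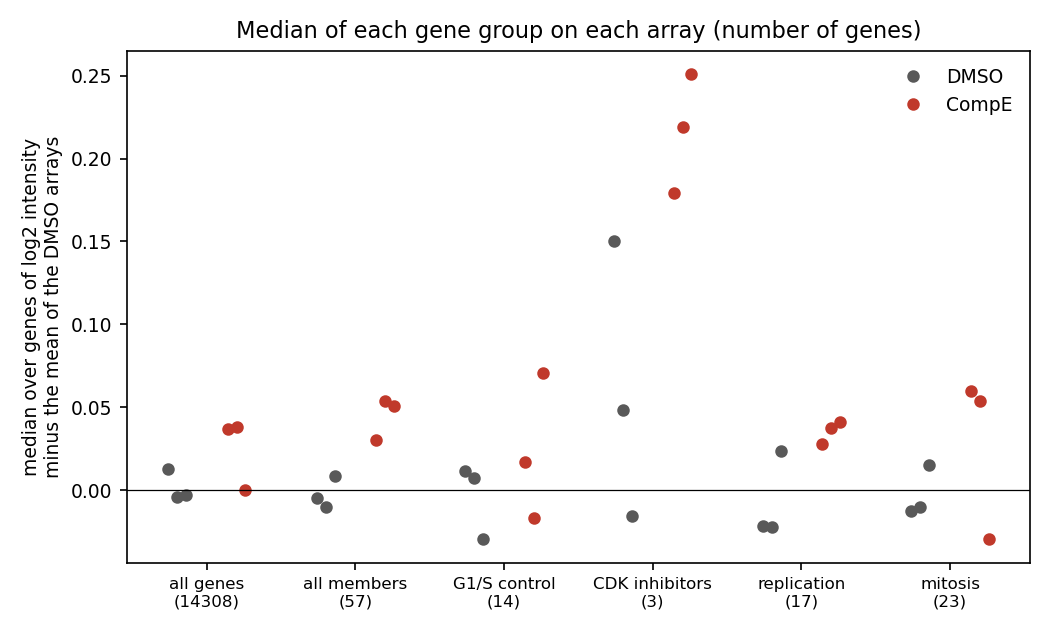
Median over the genes of each role, on each array, of log2 intensity minus the mean of the DMSO arrays (y axis), with all 14308 genes at the left. Over all 57 listed genes the CompE arrays sit at 0.03, 0.05 and 0.05 and the DMSO arrays between -0.01 and 0.01, while CompE and DMSO arrays overlap for G1/S control and mitosis.

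As the authors scaled the arrays, small positive differences that did not pass were common in the list. The difference was positive for 40 of 57 genes (70.2%), against 54.9% of all genes tested, and with the arrays centred on their hybridisation controls for 10 of 57 (17.5%), against 25.5%. All CompE arrays lay above all DMSO arrays for 14 genes (24.6%), against 19.1% of all, and below them for 5 genes (8.77%), against 13.0% of all. With that centring the counts were 0 above and 21 below, against 6.41% and 33.9% of all. An unadjusted p under 0.05 was reached by 8 genes with a positive and 3 with a negative difference, where 15.0% and 9.55% of all genes did so. With a variance prior that follows intensity and resists outliers, 11 of the 57 genes passed (19.3%), against 15.8% of all genes: CCND2, CCND3 and GMNN as lower and BUB1B, CDK1, CDK4, CDK6, CDKN1B, MCM2, RRM1 and RRM2 as higher.

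**Figure D5:**
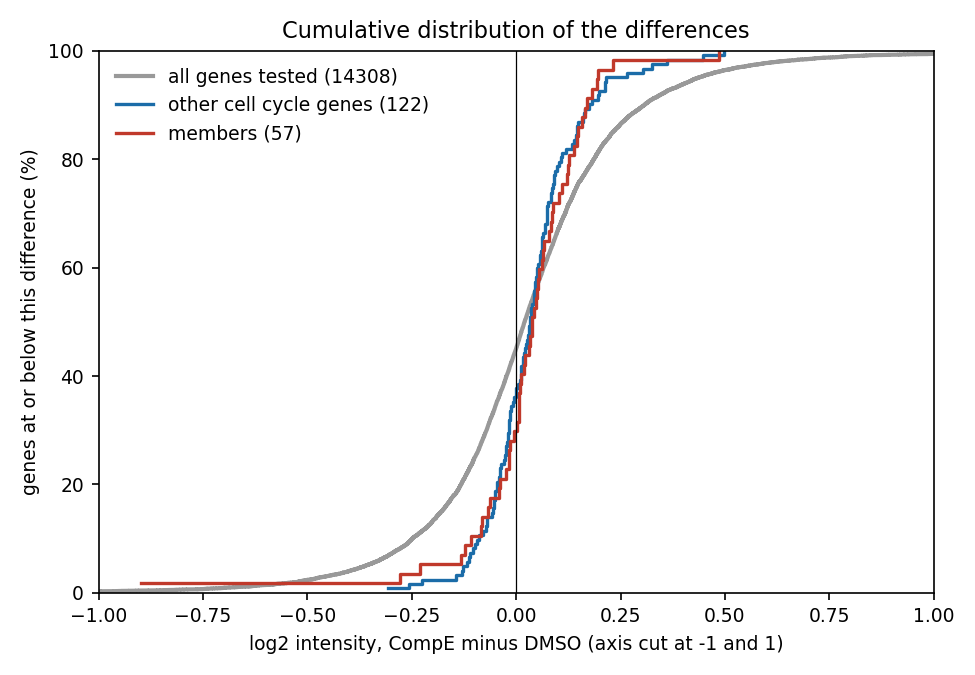
Cumulative share of genes (y axis, percent) by difference in log2 intensity, CompE minus DMSO (x axis), for the 57 listed genes, 122 other cell cycle genes and all 14308 genes tested. The curves of both cell cycle sets are steeper than that of all genes, with 35 of the 57 listed genes within 0.1 of 0, and the step at -0.90 is CCND2.

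The wider cell cycle list held 123 further genes of the same pathways, of which 122 were tested. Here 2 rose, against 4.56% of all genes tested, 0 fell, against 2.57% (limma), and 120 did not pass. By unadjusted p under 0.05 there were 17 of 122 genes with a positive and 5 with a negative difference, where 15.0% and 9.55% of all genes did so. STMN1, encoding stathmin, which takes microtubules apart and is controlled by mitotic kinases, measured 1036, 991 and 1129.7 in DMSO and 1491, 1441 and 1366 in CompE. TFDP2, a dimer partner of E2F factors, measured 675, 705 and 716 in DMSO and 854, 861 and 869 in CompE. Both were separate between groups, by 0.45 ± 0.069 and 0.30 ± 0.048 (adjusted p = 0.0228 and 0.0233). The STMN1 call was lost without DMSO replicate 1 or 2 or CompE replicate 1 or 2, and the TFDP2 call without any 1 array (adjusted p from 0.0440 to 0.0888 for STMN1 and from 0.0653 to 0.0888 for TFDP2). The TFDP2 call was also lost on averaging its probe sets (0.09, adjusted p = 0.461) and on centring to the hybridisation controls (0.16, adjusted p = 0.144). CDKN1A, encoding the CDK inhibitor p21, measured 1937, 1698 and 1503 in DMSO and 1646, 1639 and 1455 in CompE, with overlap, and its difference of -0.11 ± 0.108 did not pass (adjusted p = 0.586). The median difference of this list was 0.03, with a range from -0.31 to 0.50, and 120 of its 122 intervals lay within 1.5-fold.

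The arrays had median intensities of 36.9 to 38.6, and those of a group correlated at 0.990 to 0.991 over the probe sets past the filter. All 10 colon epithelium markers were above the Bacillus level, against 5 of 9 for fibroblasts (summed intensity 376 to 489.6 in DMSO and 401 to 415 in CompE), 1 of 7 with a probe set for leukocytes (LYZ, which gut epithelium also makes) and 1 of 6 for endothelium, and the leukocyte marker PTPRC averaged 11.8 in DMSO. Of these markers CDX2 rose (0.43, adjusted p = 0.00873), and CEACAM6 (-0.29, adjusted p = 0.0306) and the fibroblast marker FAP (-0.60, adjusted p = 0.0443) fell. The ACTB ratio of 3' to 5' signal averaged 1.44 ± 0.0201 (SD, n = 3) on the DMSO arrays and 1.51 ± 0.0193 on the CompE arrays ( two-sided exact permutation p = 0.1, the smallest that 3 against 3 allows), and the hybridisation controls averaged 11.62 and 11.76 on the log2 scale (exact permutation p = 0.1). The part of these shifts and marker changes in the differences of CCND2, GMNN and the other cell cycle genes was not tested.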

How the data were processed

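Per the labels' protocols and the series' design text, total RNA of 6 cultures was amplified and labelled from the 3' end, and the authors scaled the arrays against each other with dChip; neither its version nor its use of mismatch probes is stated there. As deposited, each value is the linear intensity of a probe set. They were set to at least 1 and log2 was taken, with no second normalization. The 62 control probe sets and the lowest 40% by mean log2 (below 4.61, an intensity of 24.4) were left out, leaving 32767 of 54674 probe sets. The 2016 platform annotation gave 1 gene for 41091 probe sets and several for 1800, while 11721 were not listed and are unnamed here, and 41037 of those with 1 gene matched the RefSeq gene table by Entrez identifier. The brightest probe set stood for its gene.

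CompE was compared with DMSO by limma 3.58.1 in R 4.3.3 (lmFit and eBayes, two-sided, Benjamini-Hochberg over 14308 genes), after tests on simulated data. A gene rose or fell where adjusted p was under 0.05, and intervals are 95% intervals of that fit. The number of arrays, 3 a group, limits the precision.

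The genes, the wider list and the marker lists were chosen with earlier results of these data known. Values in full are given by rule for genes that passed, those whose groups did not overlap, the smallest p and the widest and narrowest intervals in each role, and a set of usual markers (33 genes); the rest are given by range, and those named beyond the rule were chosen after their values were seen. Alternatives changed the filter, scaling, floor, choice of probe set, variance prior, replicate block and arrays used.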

Additional observations from a re-analysis of the deposited data

How the results depend on the processing

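Quantile normalization, a floor of 16 and a preference for probe sets of unique naming kept both calls, CCND2 and GMNN, as did median centring, which moved the median of the list from 0.038 to 0.022. The floor and the naming preference could not move the difference of either gene, only its adjusted p. The intensities used for both lie above 16, and no probe set of either gene has a unique name. Without the filter 363 of 19775 genes in all passed (1021 of 14308 before). Of the list 1 of 58 passed (GMNN lost, adjusted p = 0.0741) and 0 of the wider list, and the median of the CDK inhibitors was 0.12 with CDKN2B included. With the stricter filter 1751 of 10843 genes passed, beside 5 of 57 of the list (8.77%; CDC25C, CDK6 and CDKN1B in addition) and 10 of 120 of the wider list. Centring on the hybridisation controls, which moved the median of all genes to -0.12, gave 1892 of 14308 genes, 18.0% of them higher (64.0% before). It gave 6 of 57 of the list (10.5%), all lower (CCND3, CDC20, MCM4 and PLK1 in addition), 4 of the wider list and 23 intervals within 1.2-fold. The medians were then -0.11 for the list, -0.10 for G1/S control, 0.052 for CDK inhibitors, -0.11 for replication and -0.13 for mitosis. Taking the mean of a gene's probe sets gave a median of 0.050, lost CCND2 and called CDKN1C. Restricting the fit to the 10896 least variable probe sets, which lowers the residual spread by construction, gave 2920 genes, 15 of 43 genes of the list (10 higher), 24 of the wider list and medians of 0.021 for the list and 0.0086 for G1/S control. The share of all genes that passed under this restriction is not given here, so the count of the list is not set against it. The variance prior that follows intensity gave 2254 genes, 11 of the list and 12 of the wider list. Testing probe sets in place of genes, chosen after seeing the data, called the same 2 genes by their brightest probe set.

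The labels number the replicates in both groups and do not say whether same-numbered cultures were paired. Same-numbered arrays deviated from their group means with correlations of 0.02, -0.10 and -0.02. These values show no shared deviation and cannot settle whether the cultures were paired. With the replicate block 102 genes passed, 0 of the list (CCND2 adjusted p = 0.0712, GMNN 0.131) and 0 of the wider list. Leaving out 1 array at a time gave 252 to 519 genes, 1 gene of the list each time (CCND2, adjusted p from 0.0218 to 0.0337), 0 to 1 of the wider list and 22 to 30 intervals within 1.2-fold, the lowest without DMSO replicate 3. The medians ran from 0.028 to 0.056 for the list, from 0.021 to 0.062 for replication and from 0.0069 to 0.056 for mitosis. Of the 57 intervals 55 lay within 1.5-fold in each of these 6 fits. Over the 18 alternatives, the 2 genes that fell gave 35 values with a fit, of which 25 passed, and the uncalled genes named by rule gave 553, of which 28 passed and 49 had the other sign. The cause of each change was not tested except where its construction is given.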
